A study of Homo sapiens with 4 samples.

Results

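The genes examined here are the GABA-B receptor subunits GABBR1 and GABBR2 and the auxiliary subunit genes KCTD8, KCTD12 and KCTD16, which are 5 of the 17217 genes that could be named on the array. They were chosen by name, by matching the RefSeq accession in each probe name to these genes, and each had 1 target of 3 probes, 15 probes in all. RNA came from HEK293 cells, a human embryonic kidney line that was transformed with DNA of an adenovirus. It is much used to express cloned receptors. There was 1 group of 4 arrays, labelled as biological replicates 1 to 4. The cells were kept in serum-containing medium and received no treatment. Each replicate was a separate culture plate with its own RNA extraction. The spread between arrays thus covers plates, extractions and hybridisations of 1 line but not different stocks of it. It also holds a difference in the distribution of values between replicates 1 and 2 and replicates 3 and 4. The SD over all probes was 2.95 log2 units on each of the first pair and 2.65 on each of the second.

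The GABA-B receptor is the metabotropic receptor for the inhibitory transmitter GABA and belongs to class C of the G protein-coupled receptors (GPCRs). It is an obligate heteromer. GABBR1 binds GABA in its extracellular domain and carries a retention signal that holds it in the endoplasmic reticulum, while GABBR2 masks that signal through a coiled coil, brings the complex to the surface and activates the G protein. The KCTD proteins encoded by KCTD8, KCTD12 and KCTD16 bind the tail of GABBR2 and also the G protein beta-gamma subunits, and they set the speed and desensitisation of the response. The receptor acts through Gi and Go proteins, which inhibit adenylyl cyclase and, through beta-gamma, open GIRK potassium channels and close presynaptic calcium channels.

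The values were log2 probe intensities, and a gene's level was log2 of the mean linear value of its probes. The study's own rule for presence was used. The baseline of an array was the mean plus 2 SD of its seminal protein genes, which were taken as not transcribed in the line. It was 9.47, 9.94, 10.69 and 10.32 log2 units on replicates 1 to 4. A gene's distance is its level minus the baseline of the same array, in log2 units. Each probe has its own affinity, so distances of different genes do not rank the amounts of their transcripts, and no level of 1 gene was tested against that of another. As a further background, 364 olfactory receptor genes had mean levels of 6.45 to 7.21 log2 units on the 4 arrays. Across genes, arrays correlated with Pearson's r of 0.949 to 0.977, and the closest pairs were replicates 2 and 4 and replicates 1 and 3 (0.971). In the line check 10 of 10 reference genes were above the baseline by mean distance, where 52.7% of all genes were. So were 5 of 8 kidney development genes, 1 of 10 tubule and podocyte genes, 6 of 10 neuronal genes and 1 of 7 blood and glial genes. Above it on all 4 arrays were 10, 2, 1, 4 and 0 genes of these lists, where 45.0% of all genes were. The labels call the cells normal. Of the tubule and podocyte genes UMOD and AQP2 lay below the baseline on all 4 arrays. LRP2, the 1 of these 10 above it, was above on all 4, at a mean distance of 1.27 log2 units.

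Message for GABBR1 stood above the baseline on all 4 arrays, and that for its partner GABBR2 stood below it on all 4. Of the KCTD genes, KCTD16 was below the baseline on all 4 arrays, KCTD12 straddled it, and KCTD8 was near it on replicates 1 and 3 and far below it on replicates 2 and 4. By mean distance, 1 of the 5 genes was above the baseline, where 52.7% of all genes were. Above it on all 4 arrays was 1 of 5, where 45.0% of all genes were. By limma's one-sided test with Benjamini-Hochberg adjustment over all genes, 1 of 5 was called, where 45.9% of all genes were. This fit gave every gene the same standard error. Its p-values therefore do not measure a gene's own spread between arrays, which the SD gives. Below the baseline on all 4 arrays were 2 of 5, where 39.8% of all genes were.

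**Figure D1:**
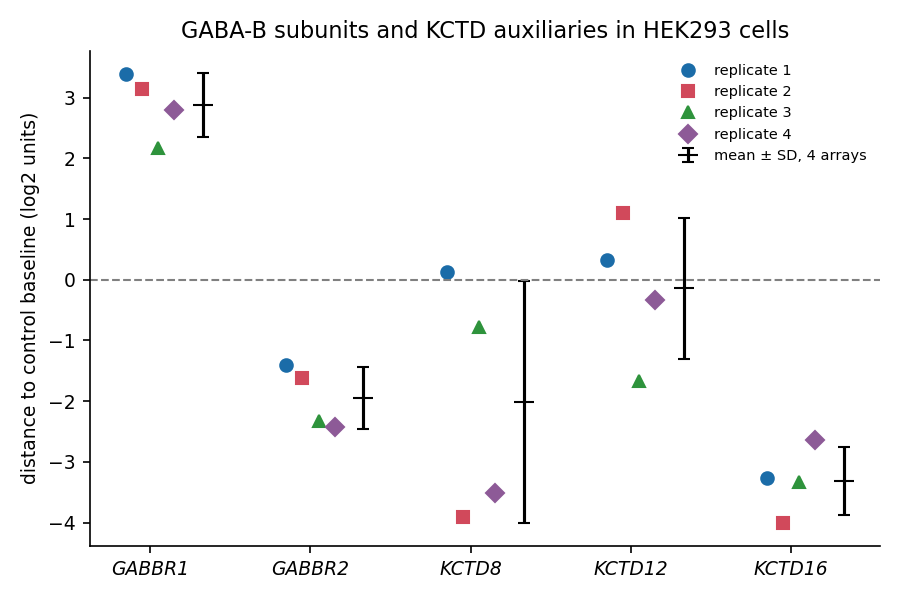
Distance of each gene to the control baseline (log2 units, vertical axis) on the 4 arrays (coloured symbols), with the mean and SD over arrays beside them and the baseline as a dashed line at 0. GABBR1 lies between 2.17 and 3.38 above the line on every array, GABBR2 and KCTD16 lie below it on every array, and KCTD8 and KCTD12 have arrays on both sides.

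GABBR1, the GABA-binding subunit, had levels of 12.85, 13.08, 12.86 and 13.12 log2 units on replicates 1 to 4. These 4 values lay within 0.26 log2 units of each other, and 16352 of the 17217 genes had a larger SD over the arrays than the 0.14 of GABBR1. Its distances to the baseline were 3.38, 3.14, 2.17 and 2.80 log2 units, with a mean of 2.87 ± 0.53 (SD, n = 4, limma adjusted p = 7.7e-16). The distance was lowest on replicate 3, where the baseline was highest. The level there, 12.86 log2 units, was close to the lowest, 12.85 on replicate 1. On a given array up to 83.3% of all genes had a lower level than GABBR1, and all 364 olfactory receptor genes had a lower level on each array.

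The signal did not rest on a single probe. The first probe of GABBR1, in the order of the probe names, read 13.77, 14.27, 13.97 and 14.28 log2 units on replicates 1 to 4. The second read 10.81, 10.44, 11.05 and 11.14, and the third read 12.65, 12.23, 12.02 and 12.15. All 12 of these probe values exceeded the baseline of their array, although the probes differed among themselves by more than any of them did between arrays. GABBR1 is transcribed from alternative starts into isoforms with and without sushi domains at the amino terminus. The array had 1 target for the gene, named for a single transcript, and the probe sequences were not used here, so the isoforms could not be told apart. By the root mean square difference of the distance over the 4 arrays, the genes with values most like those of GABBR1 were SVIL (0.05 log2 units), TBRG4 (0.07) and MRFAP1L2 (0.08).

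GABBR2, the subunit that couples to the G protein, had levels of 8.07, 8.31, 8.36 and 7.89 log2 units. Their range was 0.47 log2 units and their SD 0.22, against 0.26 and 0.14 for GABBR1. The distances were -1.40, -1.62, -2.33 and -2.43, with a mean of -1.95 ± 0.51 log2 units (SD, n = 4, limma adjusted p = 1.0 for lying above the baseline). Its 12 probe values ran from 6.57 to 9.32 log2 units and all of them lay below the baseline. GABBR2 stood 0.15 to 0.83 control SDs above the mean of the control genes.

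The reading of GABBR2 depended on which genes stood for zero. It exceeded 93.7% to 97.5% of the olfactory receptor genes, depending on the array. Among the seminal controls AFG2A, listed by the study as SPATA5, and SPATA13 had mean distances of -0.13 and -0.38 log2 units, while the other 8 lay between -3.58 and -2.85. Without these genes as controls the distance of GABBR2 was 0.38 log2 units (limma adjusted p = 0.118), and with olfactory receptor genes as controls it was 0.14 (limma adjusted p = 0.427). Neither passed the test. The distance of GABBR1 was 4.96 log2 units with the olfactory receptor genes and larger still under the other change.

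**Figure D2:**
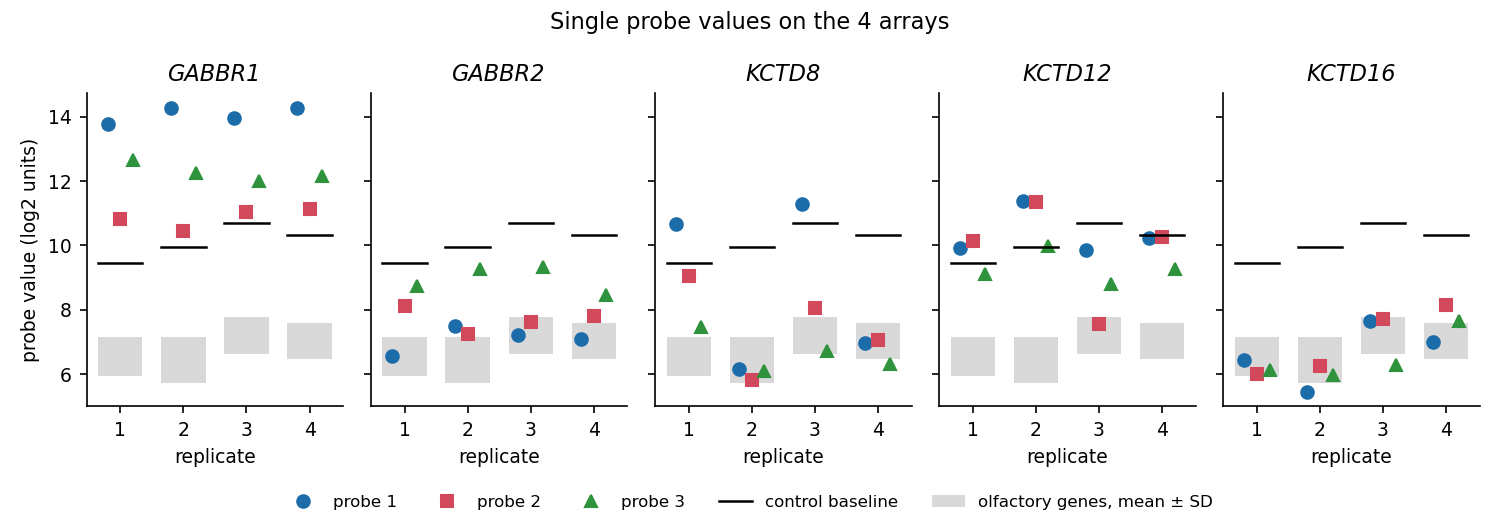
Value of each of the 3 probes of every gene (log2 units, vertical axis) on replicates 1 to 4, with the control baseline of each array as a black bar and the mean ± SD of 364 olfactory receptor genes as a grey box. All 12 values of GABBR1 lie above the bars, all 12 of GABBR2 and of KCTD16 lie below them, and the 3 probes of KCTD8 are each higher on replicates 1 and 3 than on replicates 2 and 4.

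KCTD12, the auxiliary subunit known for producing rapid desensitisation of the receptor, had levels of 9.79, 11.03, 9.03 and 9.99 log2 units. Replicate 2 was the highest and replicate 3 the lowest, a range of 2.00 log2 units. The distances were 0.32, 1.10, -1.66 and -0.33, and the mean of -0.14 ± 1.17 log2 units (SD, n = 4, limma adjusted p = 1.0) was smaller than the spread between arrays. Of its 12 probe values, 5 exceeded the baseline.

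The second probe of KCTD12 read 7.57 log2 units on replicate 3, where replicates 1, 2 and 4 gave 10.14 to 11.35, a drop that the other probes did not share to that extent. The first probe read 9.87 on that array and 9.92 to 11.39 on the others, and the third read 8.79 against 9.12 to 9.97. Replicate 3 was nevertheless the lowest array for each of the 3 probes. Without replicate 3 the mean distance was 0.36 log2 units (limma adjusted p = 0.329), and on replicates 1 and 2 alone it was 0.71 (limma adjusted p = 0.124).

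Against the olfactory receptor genes KCTD12 read high, above 99.2% to 99.7% of them on each array. With these as controls its distance was 1.94 log2 units (limma adjusted p = 1.4e-06), and without SPATA5 and SPATA13 it was 2.18 (limma adjusted p = 6.4e-09). It was the only one of the 5 genes whose limma call changed with the control genes.

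KCTD16, an auxiliary subunit whose product does not cause strong desensitisation, had levels of 6.21, 5.93, 7.36 and 7.68 log2 units. The values of replicates 3 and 4 were higher than those of replicates 1 and 2. These are the same 2 pairs of arrays that each shared nearly 1 distribution of values. Whether the order comes from the processing was not tested. The mean level of the olfactory receptor genes moved the same way, at 6.55, 6.45, 7.21 and 7.04 log2 units on replicates 1 to 4. Relative to that mean KCTD16 stood at -0.33, -0.51, 0.15 and 0.65 log2 units, or -0.01 ± 0.52 (SD, n = 4). The distances to the baseline were -3.26, -4.00, -3.33 and -2.64, with a mean of -3.31 ± 0.56 log2 units (SD, n = 4). All 12 probe values lay below the baseline. KCTD16 stayed below the baseline under every alternative that kept it in the fit, with a highest value of -0.98 log2 units without SPATA5 and SPATA13.

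**Figure D3:**
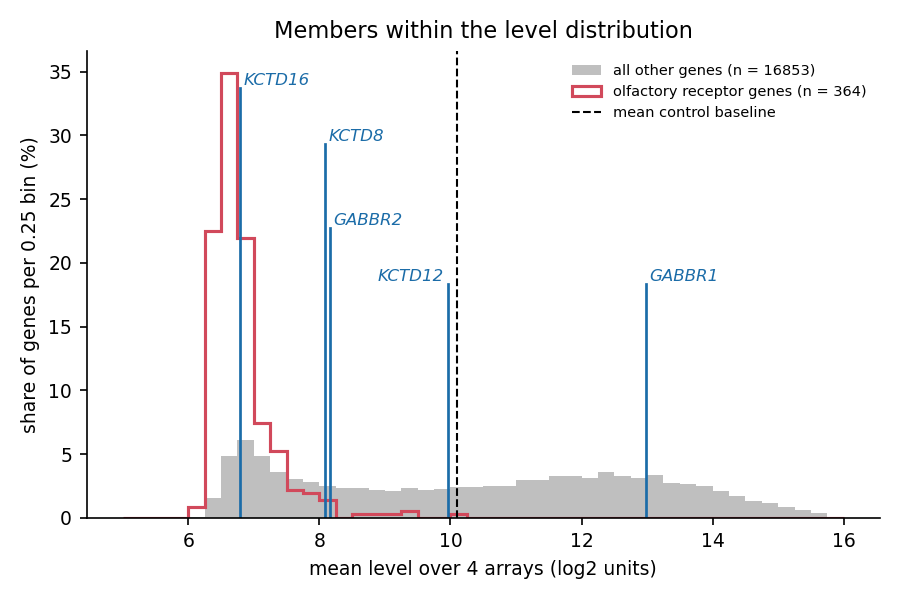
Share of genes (%, vertical axis) by mean level over 4 arrays (log2 units, bins of 0.25) for olfactory receptor genes (red outline) and all other genes (grey), with the 5 genes as blue lines and the mean control baseline of 10.10 dashed. KCTD16 at 6.80 falls within the olfactory receptor peak and GABBR2 at 8.16 lies on its upper tail. The KCTD8 mean of 8.09 also falls there but describes no array. It averages 9.60 and 9.91 on replicates 1 and 3 with 6.04 and 6.81 on replicates 2 and 4. KCTD12 at 9.96 lies beside the baseline and GABBR1 at 12.98 lies above it.

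KCTD8, the third auxiliary subunit, behaved unlike the others. Its levels were 9.60, 6.04, 9.91 and 6.81 log2 units on replicates 1 to 4. Replicates 1 and 3 were high and replicates 2 and 4 were low, with no overlap and a range of 3.88 log2 units. The SD over arrays was 1.95 log2 units, where the median gene had 0.42 and the 95th percentile was 0.97, and 31 of the 17217 genes (0.18%) had a larger SD. The distances were 0.13, -3.90, -0.78 and -3.51, and their mean of -2.01 ± 2.00 log2 units (SD, n = 4) describes none of the arrays. It was 0.31 without SPATA5 and SPATA13 and 0.070 against the olfactory receptor genes, and did not pass the limma test under either change (adjusted p = 0.288 and 0.613).

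The first probe of KCTD8 read 10.66 and 11.30 log2 units on replicates 1 and 3 and 6.16 and 6.96 on replicates 2 and 4. The second read 9.06 and 8.06 against 5.84 and 7.05. The third read 7.48 and 6.71 against 6.09 and 6.33. Thus each of the 3 probes placed replicates 1 and 3 above replicates 2 and 4, by gaps of 3.71, 1.01 and 0.38 log2 units. The probes were read on the same arrays and are not independent of each other. On replicates 1 and 3 KCTD8 exceeded 99.7% and 99.5% of the olfactory receptor genes, and on replicates 2 and 4 it exceeded 26.1% and 37.6%.

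An order with replicates 1 and 3 both above replicates 2 and 4 was found for 22.2% of all genes. Of the 31 genes with a larger SD than KCTD8, 18 had this order and 11 had the opposite one. Neither the labels nor the study's methods give a property that sets replicates 1 and 3 apart. The pairs were seen in these same values, so their order is described and was not tested. The other 4 genes did not have this order. GABBR1 and KCTD12 had the opposite one, with gaps of 0.22 and 0.20 log2 units between the nearest values. GABBR2 was mixed, and KCTD16 was higher on replicates 3 and 4 than on replicates 1 and 2.

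**Figure D4:**
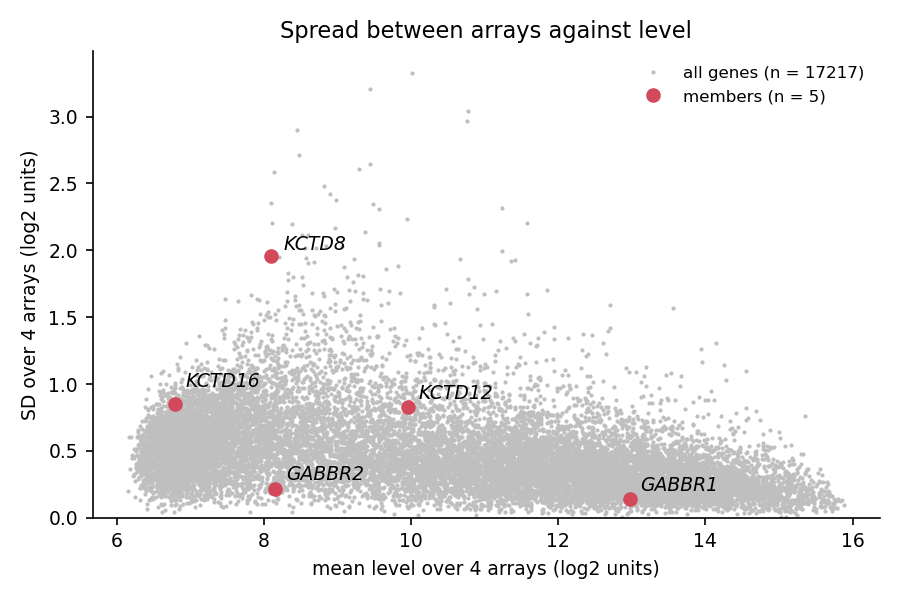
SD over the 4 arrays (log2 units, vertical axis) against mean level over the 4 arrays (log2 units) for 17217 genes (grey points) and the 5 genes (red, labelled). KCTD8 stands apart at an SD of 1.95, KCTD12 and KCTD16 lie at 0.83 and 0.85, and GABBR2 and GABBR1 lie at 0.22 and 0.14.

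Upstream sequence was available from RefSeq for all 5 genes (GRCh38.p14, 250 bases before to 50 after an annotated start, 6 entries because KCTD16 has 2 starts). The palindrome TGACGTCA, the full cyclic AMP response element bound by CREB and ATF proteins, was searched in the 250 upstream bases after the sequences had been read. As a palindrome it reads the same on both strands. It was present for GABBR1 and KCTD8, and in 578 of 35116 promoter entries of the table (1.65%). Because the palindrome was picked after reading, the matches are not a test against that share. The 6 entries also held 21 to 50 CpG in 300 bases, where the median of all entries was 14, and the palindrome itself holds a CpG. No link to the levels of these genes was tested. The stretches are shown because they hold these matches, which are descriptions and not evidence of binding. Capitals mark the palindrome and each stretch runs 5′ to 3′ on the strand of the gene.
GABBR1, minus strand, chr6:29628045-29628104: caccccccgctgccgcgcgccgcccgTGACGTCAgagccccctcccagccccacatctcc
KCTD8, minus strand, chr4:44448953-44449012: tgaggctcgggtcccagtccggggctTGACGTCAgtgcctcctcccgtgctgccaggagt
The palindrome ends 57 bases before the annotated start of GABBR1 and 169 bases before that of KCTD8. The GABBR1 stretch lies within the annotated span of the gene, because longer transcripts begin further upstream, and the KCTD8 stretch lies outside the span of its gene. The upstream windows of GABBR2, KCTD12 and KCTD16 did not contain these letters.

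The rest of the pathway was then set against the same baseline, in 12 lists of 103 genes, of which 100 were measured. In all 43 of the 100 had a mean distance above 0, where 52.7% of all genes had, and limma called 37, where it called 45.9% of all genes. These shares are the background for the lists that follow. The median distance was -1.54 log2 units, where that of all genes was 0.26.

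GAD1 and GAD2, the glutamate decarboxylases that make GABA, stood at -0.13 ± 0.71 and -3.22 ± 0.25 log2 units (SD, n = 4 for each). GAD1 was above the baseline on replicates 1 and 2, by 0.78 and 0.10, and below it on replicates 3 and 4. ABAT, the transaminase that breaks GABA down, stood at 0.38 ± 0.79 (SD, n = 4, limma adjusted p = 0.287). ALDH5A1, which oxidises the product of that step, stood at 2.57 ± 0.62 (SD, n = 4) and passed the limma test. None of 5 GABA transporter genes was above the baseline on any array, and their mean distances ran from -3.24 for the vesicular transporter SLC32A1 to -1.99 for SLC6A11.

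Of 18 subunits of the ionotropic GABA-A receptor, 1 had a mean distance above 0, GABRE at 0.37 ± 1.72 log2 units (SD, n = 4, limma adjusted p = 0.303), and limma called none of them, with none at an unadjusted p under 0.05 either. GABRP stood at -0.87 ± 0.30 (SD, n = 4). The number of subunits above the baseline depended on where the baseline lay. It was 7 without SPATA5 and SPATA13, 6 with olfactory receptor genes as controls, 5 with the median and scaled median absolute deviation, 4 with a baseline of 1 SD and 0 with one of 3 SD, and it was 0 without replicate 1 and 2 without replicate 4. Of 19 other class C receptors 3 had a mean distance above 0 and all 3 were called, GPRC5A, GPRC5B and GPRC5C, all orphans and all above the baseline on the 4 arrays. Above the baseline were 8 of the 19 without SPATA5 and SPATA13 and 5 with olfactory receptor genes as controls. The 7 metabotropic glutamate receptors measured lay between -3.54 and -2.04 log2 units.

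A wide spread like that of KCTD8 was found for 3 genes of these lists, named after their values were seen because the SD of their distance exceeded 1.5 log2 units. GRM8, a metabotropic glutamate receptor, had distances of 0.02, -3.88, -0.76 and -3.54 log2 units on replicates 1 to 4. GABRE had 2.15, -1.39, 1.48 and -0.78, and GABRQ had 0.85, -3.02, 0.51 and -2.52. In each of the 3, as in KCTD8, replicates 1 and 3 were both above replicates 2 and 4.

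Most other members of the KCTD family are known or proposed adaptors for cullin ubiquitin ligases. Of 17 measured, 14 had a mean distance above 0 and limma called 11. Of the 3 auxiliaries limma called 0, none passed at an unadjusted p under 0.05 or when limma's prior was made robust with an intensity trend, and KCTD12 was called under both changes of the control genes. The families were not tested against each other. The distances of the 17 ran from -3.14 to 3.39 log2 units with a median of 1.39. The largest were KCTD20 at 3.39 ± 0.44, KCTD5 at 3.34 ± 0.43 and KCTD13 at 3.03 ± 0.48 (SD, n = 4 for each). KCTD5 is known for promoting the degradation of G protein beta-gamma subunits.

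Of 4 proteins that bind the sushi domains of GABBR1, APP, the amyloid precursor, stood at 3.97 ± 1.03 log2 units and PIANP at 0.94 ± 0.68 (SD, n = 4 for each), and limma called both (adjusted p = 0.0085 for PIANP). AJAP1 and FBLN2 stood at -3.11 ± 0.30 and -2.30 ± 0.40 (SD, n = 4 for each), below the baseline on every array. All 8 genes for proteins that bind the intracellular parts of the subunits or act on their transport were called, and each exceeded the baseline of all 4 arrays. They included PRAF2, a gatekeeper that holds GABBR1 in the endoplasmic reticulum, at 1.80 ± 0.56, and the coatomer gene COPB1 at 4.91 ± 0.77 (SD, n = 4 for each). The transcription factor ATF4, which binds the coiled coil, stood at 3.57 ± 0.64 (SD, n = 4). Most of these 8 genes are used by nearly every cell type.

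Of 5 Gi and Go class alpha subunits 3 were called, with GNAI2 at 3.77 ± 0.54, GNAZ at 2.05 ± 0.64 and GNAI3 at 1.46 ± 0.56 log2 units (SD, n = 4 for each). GNAI1 stood at -0.02 ± 0.92 and GNAO1, the neuronal Go subunit, at -1.83 ± 0.45 (SD, n = 4 for each). All 5 beta subunits lay above the baseline on all 4 arrays and 4 were called, the exception being GNB3 at 0.48 ± 0.44 (SD, n = 4, limma adjusted p = 0.182). Of 9 adenylyl cyclases 5 were called, near the share of all genes (45.9%), among them ADCY6 at 2.29 ± 0.73 and ADCY9 at 2.04 ± 0.64 (SD, n = 4 for each).

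The ion channels that the receptor opens or closes in neurons read low. None of the 4 GIRK channel genes was above the baseline on any array, and their mean distances ran from -3.36 for KCNJ9 to -2.95 for KCNJ3, within the range of the 8 lowest control genes. The calcium channel genes CACNA1A and CACNA1B stood at -3.28 ± 0.39 and -1.74 ± 0.32 log2 units (SD, n = 4 for each). CACNA1B was the 1 of these 6 channel genes that lay above the baseline, by 0.58 log2 units (limma adjusted p = 0.029), once SPATA5 and SPATA13 no longer served as controls. With olfactory receptor genes as controls it stood at 0.34 (limma adjusted p = 0.160).

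**Figure D5:**
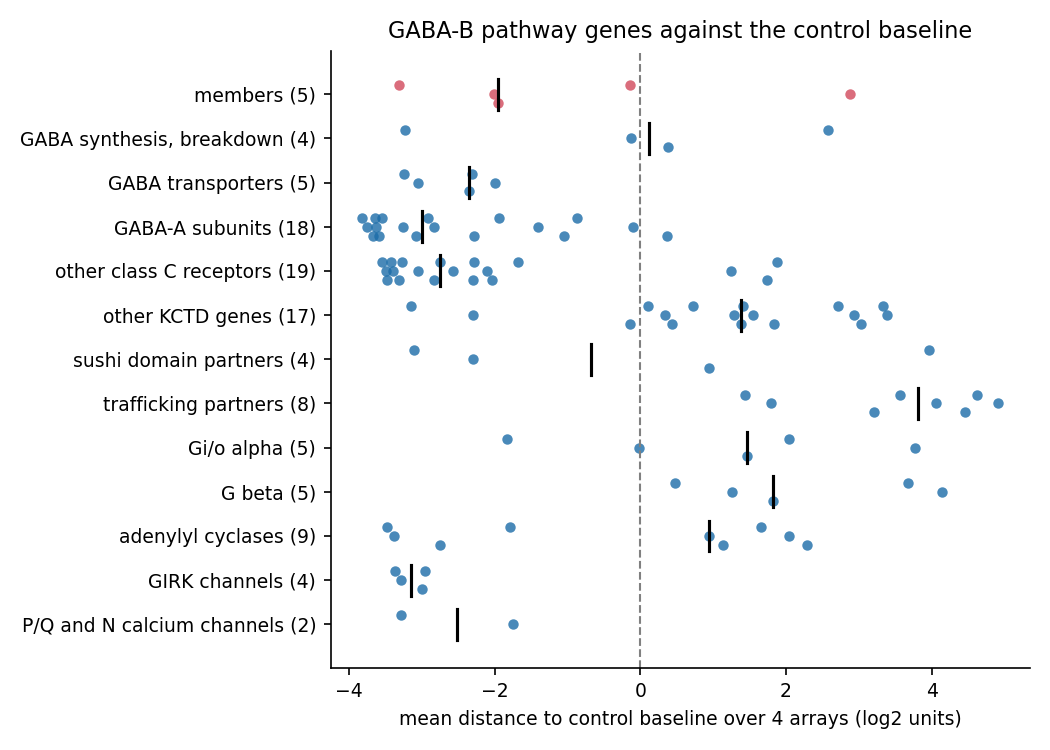
Mean distance to the control baseline over 4 arrays (log2 units, horizontal axis) for the 5 genes (red) and the genes of 12 pathway lists (blue), with the number measured in brackets, the median of each list as a black bar and the baseline as a dashed line. All 8 trafficking partners and all 5 G beta genes lie to the right of the line, and the GABA transporters, GIRK channels and calcium channels lie to its left.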

How the data were processed

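RNA from 4 untreated HEK293 cultures was hybridised in a single colour to NimbleGen arrays of 60-base probes designed on HG18. The authors deposited 1 log2 intensity per probe and array. The submitters' processing notes name RMA, with no role stated. Sorted values agreed within 0.01 at 99.97% of ranks between replicates 1 and 2 and at 99.99% between replicates 3 and 4, against 1.22% to 1.25% in other pairs, the form that quantile normalization of separate pairs gives.

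Of 24000 targets in 71998 probes, 19125 were named through accessions without versions (RefSeq, GRCh38.p14). Several targets of a gene were averaged. Of 11 control genes 10 were matched (PYY2 was not), and KCTD19 and GABRR3 were among the list genes left unmatched. Distances to the baseline were tested against 0, one-sided, with limma 3.58.1 in R 4.3.3 and Benjamini-Hochberg adjustment at 0.05 over 17217 genes. The script was tested on simulated data with independent noise, the same spread for every gene and no error in the baseline of an array. That run checked the code and not the p-values of these data. In the main fit the standard error came out equal for all genes, at 0.351, so its p-values do not reflect a gene's own spread over the arrays. Each alternative was fitted anew and need not share this error. Without SPATA5 and SPATA13, GABBR1 had a limma adjusted p of 2.3e-21 at 5.20 log2 units. With a baseline of 1 SD it had 1.8e-37 at 4.19. The p-values of different settings are therefore not comparable. All p-values also take the baseline of each array, set by a few control genes, as known. Because a baseline that is too high or low affects a whole array, the tests of different genes are not independent. Exact sign flipping of 4 values gives a one-sided p of 0.0625 at best. The number of arrays limits the precision. No raw intensities were used here.

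The genes and lists were chosen with earlier results of these data known. Named were the 5 genes, any gene of a list of up to 10, the genes above the baseline and the 3 highest of longer lists, control genes, and the 3 genes nearest to GABBR1. Exceptions are marked, and some genes that this rule names are not reported here. Alternatives changed the summary of probes and targets, the baseline, the controls, the normalization, the arrays used, the limma prior and a filter on dim genes.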

Additional observations from a re-analysis of the deposited data

Results flagged for a closer look

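Of 91 series of 4 values looked at (levels, distances and probes of the 5 genes and distances of the named pathway genes), 3 had an array whose gap to the nearest of the others exceeded Dixon's 95% critical value for 4 values, set on the gap divided by the range. By chance about 5 in 100 such series would. None belonged to GABBR1, GABBR2 or the KCTD genes. The distance of GNAI2 was 4.56 log2 units on replicate 1, while the others did not exceed 3.60 (ratio 0.830). That of CACNA1A was -2.71 on replicate 4, while the others lay between -3.51 and -3.43 (ratio 0.907). That of GABRP was -0.43 on replicate 2, while the others lay between -1.05 and -0.97 (ratio 0.864). In the levels before subtraction of the baseline the largest ratios were 0.550, 0.259 and 0.764.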

How the results depend on the processing

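GABBR1 stayed above the baseline and was called by limma under all 19 alternatives run, from 1.56 log2 units upwards, with adjusted p-values from 3.5e-42 to 0.00012. Shifting arrays to a common median, the changed limma prior and the filter on dim genes cannot move a distance. For distances they are no further support, here or in the counts below. Taking the highest or the lowest target of a gene could not change the levels of these 5 genes, which had 1 target each. It moved their distances only through the control genes, to 2.82 and 2.89 log2 units for GABBR1. KCTD16 stayed below the baseline under the 18 that kept it, and the filter on dim genes removed it. Of the alternative values of distances and of counts over the 5 genes or the pathway, 145 kept direction, side of the threshold or size, 12 changed sign and 13 counts moved by over 1.5 times.

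Without SPATA5 and SPATA13 the distances of GABBR2, KCTD8 and KCTD12 were 0.38, 0.31 and 2.18 log2 units (limma adjusted p = 0.118, 0.288 and 6.4e-09). With controls drawn from the olfactory receptor genes they were 0.14, 0.070 and 1.94 (limma adjusted p = 0.427, 0.613 and 1.4e-06). Under each of these changes 4 of the 5 genes were above the baseline and limma called 2. KCTD12 stood at 1.17 with a baseline of 1 SD and at 1.56 with the median and scaled median absolute deviation, and 2 genes were then above the baseline and 2 were called. KCTD12 also changed sign, with 2 genes above the baseline and without passing the test, at 0.057 with the mean and 0.11 with the median of log2 probe values, at 0.36 without replicate 3 and at 0.71 on replicates 1 and 2 alone. With a baseline of 3 SD limma called 17 pathway genes in place of 37. The cause was not tested for any of these.

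Leaving out each replicate in turn gave 2.70 to 3.11 for GABBR1, -2.13 to -1.79 for GABBR2, -2.73 to -1.38 for KCTD8, -0.56 to 0.36 for KCTD12 and -3.53 to -3.08 for KCTD16, with 1 to 2 genes above the baseline. The median distance of all genes shifted by 2.33 log2 units without SPATA5 and SPATA13, by 2.08 with olfactory receptor genes and by -0.24 with the median of probes. Averages over replicates 1 and 3 alone and over replicates 2 and 4 alone were also computed, chosen after seeing the data, and were then dropped, because these pairs were picked by the values measured on them. The sign of the KCTD12 mean depended on this choice. No paired analysis was possible because the series holds 1 group, so that replicate numbers pair no samples. Without raw intensities, signal over background of single spots was not examined.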
